A study of Rattus norvegicus with 8 samples.

Results

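The genes described here are 7 members of the group of immune costimulators, some of them inhibitory, measured in rat ovaries: Vtcn1, Cd83, Cd80, Cd86, Cd274, Cd276 and Cd40. They were taken as the array probes whose deposited gene name equals one of these symbols, which gave 9 probes for 7 of the 26214 gene names on the array. Vtcn1 and Cd83 were chosen by their measured differences between the PMSG and control arrays, which were among the largest on the array, and the other 5 because they are related to them by family or function. The differences of the 7 genes in that contrast are therefore given as a description, with no p-value. Of the 9 probes, 7 were well above background on at least 4 of the 8 arrays, and these covered 5 genes. Cd80 and Cd274 each had a single probe, and it did not reach that level on any array.

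T cells need a second signal beside the antigen receptor, and the B7 family of surface proteins delivers it. Cd80 (B7-1) and Cd86 (B7-2) bind CD28 to stimulate or CTLA4 to restrain, Cd274 (PD-L1) binds PD-1 to restrain, and Vtcn1 (B7-H4) is a mostly inhibitory ligand that epithelia and several gynaecological tumours carry. Cd83 is a surface protein best known from mature dendritic cells, where it stabilises MHC class II and Cd86. Cd40 is a receptor of the TNF receptor superfamily that antigen-presenting cells use to receive CD40 ligand from helper T cells, and it signals through TRAF proteins to NF-kB.

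RNA came from whole ovaries of immature female rats and was hybridised in 1 colour (Cy3) to Agilent rat arrays, with 4 arrays per group. The PMSG group had received 50 IU of pregnant mare serum gonadotropin, a hormone that acts like both follicle-stimulating and luteinising hormone in rats, under the skin at 26 days of age, carried in phosphate buffer with albumin (0.2 ml). The control group had received this vehicle alone, and ovaries of both groups were removed 48 h later, at 28 days of age. No strain, allele or pooling of animals is given in the labels, and they do not say that each array is a separate animal, so the p-values below measure only the spread between these arrays.

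Values are log2 processed signals minus the 75th percentile of the array, so 0 is the level of the array's 75th percentile probe. The 75th percentile signal lay between 1002 and 1103 on the control arrays and between 769 and 1082 on the PMSG arrays, and 80.8% to 84.6% of probes were well above background on each array. Pearson r between arrays over all tested probes was 0.977 to 0.993 within groups and 0.960 to 0.972 between groups. Of 25303 probes tested with limma, 8658 passed an adjusted p of 0.05, or 34.2%. Higher on the PMSG arrays were 51.4% of these calls. That share was 34.5% when each array was centred on its median and 61.3% without PMSG array 4. All 7 listed oocyte genes, Gdf9 and Zp2 among them, were well above background on every array of both groups. Groups are named by their labels throughout, because Cyp11a1 and Star, steroidogenic genes that gonadotropins are known to raise, were lower on the PMSG arrays: by -3.36 ± 0.31 (SE, adjusted p = 2.32e-04, limma) for Cyp11a1 and by -2.75 ± 0.54 (adjusted p = 0.00541) for Star. Amh, a hormone of small growing follicles, was 3.03 higher (adjusted p = 2.61e-04). Whether the labels of the 2 groups are exchanged was not tested. If they were, every direction given here would turn, with Vtcn1 and Cd40 higher and Cd83 lower after PMSG, and the sizes would stay.

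Vtcn1 and Cd83, the members that moved furthest and in opposite directions, have promoter sequences in RefSeq (assembly GRCr8), which are shown to set the 2 genes side by side. The windows hold the 250 bases before the annotated start of each gene, 5′ to 3′ on the gene's strand, Vtcn1 at chr2:190941974-190942223 (plus strand) and Cd83 at chr17:21112678-21112927 (minus strand). Capitals mark a match to a searched motif. In Vtcn1 they mark the AP-1 motif, and the final capital in Cd83 is the first base of an NF-kB match that runs across the start.
Vtcn1 promoter: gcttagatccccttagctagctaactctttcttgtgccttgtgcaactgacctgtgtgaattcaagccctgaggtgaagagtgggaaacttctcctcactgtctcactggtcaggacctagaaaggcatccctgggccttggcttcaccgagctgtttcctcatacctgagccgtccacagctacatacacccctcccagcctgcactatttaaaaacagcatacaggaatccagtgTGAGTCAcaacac
Cd83 promoter: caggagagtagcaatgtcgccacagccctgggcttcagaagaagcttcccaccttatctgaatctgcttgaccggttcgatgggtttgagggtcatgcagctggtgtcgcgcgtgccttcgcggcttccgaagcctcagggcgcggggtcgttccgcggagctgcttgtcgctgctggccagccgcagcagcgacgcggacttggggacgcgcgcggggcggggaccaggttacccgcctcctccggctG

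Motifs were searched on both strands over 300 bases, from 250 before to 50 after the start, in 33469 rat promoters. The AP-1 motif TGANTCA was present in 7.33% of them, the NR5A motif AAGGTCA in 4.61%, the cAMP response element TGACGTCA in 1.83% and TATAAA in 14.2%. The NF-kB consensus was present in 7.51%. Of the members, 6 of 7 had an entry in the table, Cd40 being the one without. Vtcn1 held the AP-1 match TGAGTCA, its first base 13 bases before the start, and none of the other 4 motifs. Cd83 held 3 NF-kB matches: GGGGAGTCCC, from 1 base before the start, GGGAGTCCCC, which overlaps it by all but a base, and GGGAAGTCCC, 25 bases after the start. Over the 250 bases before the start alone it held none of the 5 motifs, and the longer window was adopted after the first had been seen. Cd86 held the NF-kB match GGGGTTTTCC, 208 bases before its start, and Cd274 held TATAAA, 188 bases before. The Cd276 window and both Cd80 windows held none of the 5. A match is a run of letters, and no binding was measured here.

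Vtcn1, the inhibitory B7-H4 ligand, was far lower on the PMSG arrays, about 22-fold by its brighter probe. The array carries 2 Vtcn1 probes, both for the RefSeq transcript NM_001024244, at chr2:195933542-195933601 and chr2:195942066-195942125 of build rn4 on the plus strand, with starts 8524 bases apart. Whether each lies in coding or untranslated sequence was not analysed here, as no rn4 annotation was used. The upstream probe reads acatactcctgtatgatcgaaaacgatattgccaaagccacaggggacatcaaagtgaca, 60 bases, and shows which stretch of the transcript the weaker signal reports.

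The downstream Vtcn1 probe read 0.16, -0.31, -0.27 and 0.49 on control arrays 1 to 4, a mean of 0.02 ± 0.38 (SD, n = 4). On PMSG arrays 1 to 4 it read -4.06, -4.43, -4.80 and -4.41, a mean of -4.43 ± 0.30 (SD, n = 4). The control values lay near the array's 75th percentile and the PMSG values far below it, with an empty interval of 3.76 between the groups. The difference was -4.45 ± 0.22 (SE), a 21.8-fold lower signal, the 10th lowest of 25303 probes. With normexp background correction it was -3.29. In unscaled processed signal the probe ran from 829 to 1545 on control arrays and from 27.6 to 58.8 on PMSG arrays, and it was well above background on all 8.

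The upstream Vtcn1 probe separated the groups in the same direction. It read -2.57, -2.81, -2.75 and -2.24 on the control arrays (mean -2.59 ± 0.26, SD, n = 4). It read -6.41, -6.73, -6.16 and -6.75 on the PMSG arrays (mean -6.51 ± 0.28, SD, n = 4). No PMSG value came near a control value, and the gap between the groups was 3.35. The difference was -3.92 ± 0.18 (SE), the 24th lowest of all probes, with PMSG array 2 not well above background and all 4 PMSG signals between 9.66 and 11.6. In the main setting, against the lowest signals well above background, the fall was at least 13.7-fold, a bound that holds for that setting only. The 2 probes' differences were 0.53 apart on the log2 scale, the dimmer probe giving the smaller one.

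The arrays lie in 2 rows of a single slide, each row holding 2 arrays per group, and Vtcn1 was lower in both. The downstream probe differed by -4.71 in row 1 and by -4.18 in row 2. The upstream probe differed by -3.92 in each row.

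Cd83, the dendritic cell maturation marker, moved the other way and was about 9-fold higher on the PMSG arrays. Its single probe (NM_001108410, rn4 chr17:26705868-26705927, minus strand) read -2.11, -2.41, -2.33 and -2.75 on the control arrays, a mean of -2.40 ± 0.26 (SD, n = 4). On the PMSG arrays it read 1.09, 0.67, 0.46 and 0.85, a mean of 0.77 ± 0.27 (SD, n = 4). Every PMSG value was above the 75th percentile of its array and every control value below it, with an interval of 2.58 between the groups. The difference was 3.17 ± 0.18 (SE), a 9.01-fold higher signal and the 16th highest of all probes, or the 16th lowest if the labels were exchanged. Unscaled signals ran from 164 to 241 on control arrays and from 1061 to 2095 on PMSG arrays, well above background on all 8. The difference was 3.15 in slide row 1 and 3.19 in row 2. In RNA from a whole organ, more cells that carry a transcript and more transcript in each cell cannot be told apart, nor can fewer cells and less transcript.

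**Figure D1:**
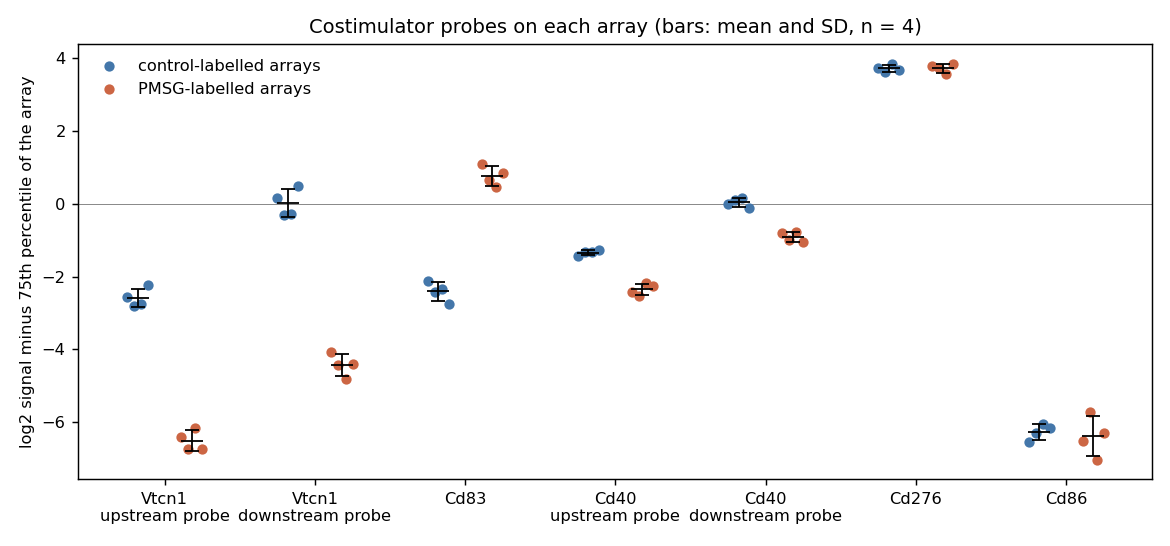
Log2 signal minus the array's 75th percentile (vertical axis) for the 7 costimulator probes that were well above background on at least 4 arrays. Points are arrays, bars the mean and SD of 4 arrays per group; both Vtcn1 probes and both Cd40 probes sit lower on the PMSG arrays, Cd83 sits higher, and the Cd276 and Cd86 groups overlap. Heights of different probes are not comparable.

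Cd40, the receptor for CD40 ligand, was lower on the PMSG arrays by about 2-fold on both of its probes (NM_134360, rn4 chr3:156106980-156107039 and chr3:156107231-156107290, starts 251 bases apart). The downstream probe read -0.01, 0.11, 0.17 and -0.10 on the control arrays (mean 0.04 ± 0.12, SD, n = 4). It read -0.81, -0.998, -0.78 and -1.05 on the PMSG arrays (mean -0.91 ± 0.14, SD, n = 4). The groups did not overlap, and 0.68 separated the nearest values. The difference was -0.95 ± 0.11 (SE), a 1.94-fold lower signal, and it was -0.90 in slide row 1 and -1.01 in row 2.

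The upstream Cd40 probe gave nearly the same difference. It read -1.44, -1.32, -1.32 and -1.28 on the control arrays (mean -1.34 ± 0.07, SD, n = 4). It read -2.43, -2.52, -2.18 and -2.26 on the PMSG arrays (mean -2.35 ± 0.15, SD, n = 4). Again no values were shared between the groups. The difference was -1.01 ± 0.10 (SE), a 2.01-fold lower signal, and the 2 probes were 0.05 apart.

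Cd276 (B7-H3), a ligand that many non-immune cells carry, showed no such separation. Its probe (rn4 chr8:62331027-62331086, minus strand) read 3.74, 3.63, 3.85 and 3.68 on the control arrays, a mean of 3.73 ± 0.10 (SD, n = 4). On the PMSG arrays it read 3.78, 3.73, 3.56 and 3.85, a mean of 3.73 ± 0.12 (SD, n = 4). The ranges overlapped almost fully, and the difference was 0.01 ± 0.10 (SE). Its sign depended on the scaling: it was 0.16 after quantile normalization and -0.16 when arrays were centred on their medians.

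Cd86 (B7-2) was close to the background. Its probe (rn4 chr11:66228898-66228957, minus strand) read -6.55, -6.31, -6.05 and -6.15 on the control arrays and -6.53, -5.71, -7.03 and -6.29 on the PMSG arrays. The PMSG values spread to both sides of the control values. The group means were -6.27 ± 0.22 and -6.39 ± 0.55 (SD, n = 4 each) and the difference -0.13 ± 0.26 (SE). Control array 1 and PMSG array 3 were not well above background, and unscaled signals ran from 5.87 to 19.6, so that a change within this error was not detectable with this probe.

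Cd80 (B7-1, rn4 chr11:64045405-64045464, minus strand) and Cd274 (PD-L1, rn4 chr1:233061619-233061678, plus strand) were not well above background on any of the 8 arrays. Unscaled signals ran from 2.64 to 7.22 for Cd80 and from 4.75 to 11.2 for Cd274. No fold and no bound on a fold is given for either gene, since neither group was well above background.

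Of the 5 member genes with a measurable probe, 3 passed the threshold that 34.2% of all probes passed: Cd83 was higher, where 17.6% of all probes were called higher, and Vtcn1 and Cd40 were lower, where 16.6% were called lower. The calls of Vtcn1 and Cd83 follow from how these genes were chosen, and nothing is read from the count. The remaining pair, Cd276 and Cd86, had groups that overlapped, whereas the groups did not overlap for 36.6% of all probes.

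**Figure D2:**
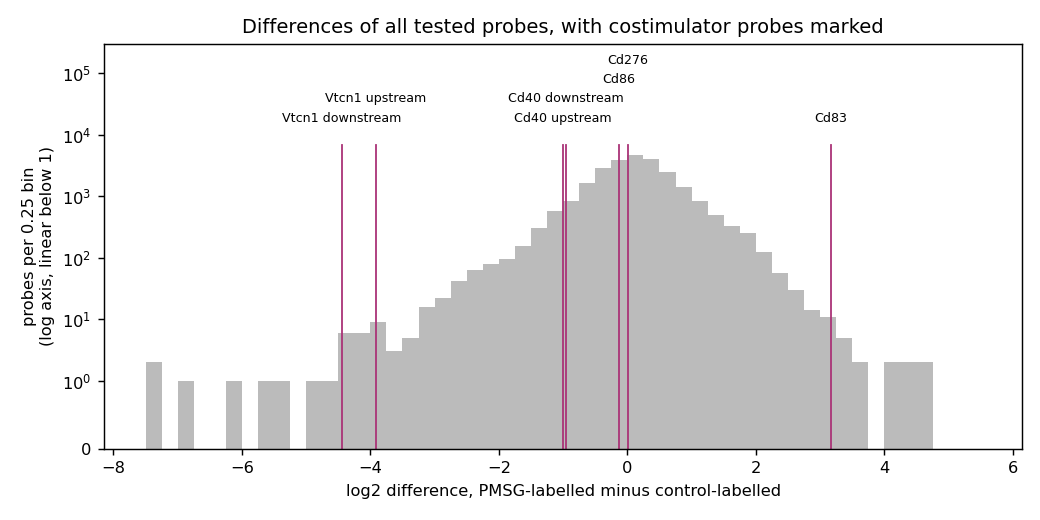
Number of tested probes (vertical log axis, linear below 1) by log2 difference, PMSG-labelled minus control-labelled arrays, in bins of 0.25. Vertical lines mark the costimulator probes: Vtcn1 at -4.45 and -3.92 lies in the lower tail, Cd83 at 3.17 in the upper tail, Cd40 at -1.01 and -0.95 on the lower flank, and Cd86 and Cd276 near the centre.

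Within groups the deviations of the members were compared across arrays, and 8 arrays are too few to decide whether the members share a pattern. After the group means were subtracted, Pearson r over 8 arrays was 0.18 between Vtcn1 and Cd83, -0.57 between Vtcn1 and Cd40 and 0.62 between Cd83 and Cd276, values given as a description only. Among the probes most like Vtcn1 by this measure, of 14959 compared, were those of Agxt2 (r = 0.97), Commd2, Pex3 and Sestd1 (0.94 each). Their own group differences ran from -1.29 for Sestd1 to 0.29 for Commd2. Since the group means were subtracted first, this measure covers only the deviations of single arrays and cannot reflect the difference between groups. The probes most like Cd83 were those of Hps5 and Cyb5d2 (0.98 each), Zfp706 (0.96), Nkiras1 (0.95) and Smagp (0.94), with differences of -0.44 for Nkiras1 to 0.54 for Smagp. Being the highest of 14959 values over 8 arrays, these correlations are high by selection.

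The other genes of the costimulation pathway were tested in the same fit. Of 50 genes listed, 42 had a probe and 35 were tested. Of these, 7 were higher and 1 was lower on the PMSG arrays at an adjusted p of 0.05 (limma), 22.9% of those tested beside 34.2% of all probes. Their median difference was 0.24, beside 0.11 over all tested probes. Median centring shifted the difference of every probe, and so the median over all probes, by -0.17.

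Among other B7 family ligands, 2 of 5 tested genes were higher, 0 were lower, and the median difference was 0.53. Icoslg, the ligand of the T cell costimulator ICOS, rose from -5.56 ± 0.29 to -4.25 ± 0.42 (SD, n = 4), a difference of 1.31 (adjusted p = 0.00354, limma). Vsir, the inhibitory ligand VISTA, rose by 0.66 (adjusted p = 0.00676), a call that median centring of the arrays took to 0.0561. The butyrophilin-related Btn2a2 differed by 0.53 (adjusted p = 0.0902), and Pdcd1lg2 (PD-L2) and Vsig4 were not well above background.

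None of the 4 receptor genes tested passed the threshold with its brightest probe, and the receptors Cd28 and Icos and the Cd40 ligand gene Cd40lg were not well above background. Ctla4, the inhibitory receptor of Cd80 and Cd86, differed by 0.64 (adjusted p = 0.141, limma). That p became 0.0101 without PMSG array 4. Pdcd1, the receptor of Cd274, differed by 0.12. Btla has 3 probes, and they disagreed in size. The brightest differed by 0.15 (adjusted p = 0.595), the others by 0.33 (adjusted p = 0.459) and 0.98 (adjusted p = 0.00866). The median over the 4 genes was 0.14, and -0.03 with median centring.

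Cd40 belongs to the TNF receptor superfamily, and of 12 tested costimulators of the TNF families 3 were higher and 0 lower, with a median of 0.40. Tnfrsf14 (HVEM), the partner of Btla and Tnfsf14, rose by 1.65 (adjusted p = 0.00394, limma), and this difference ran from 0.71 to 1.94 over 20 alternatives. Cd27, a receptor of T and memory B cells, was well above background on 2 control and all 4 PMSG arrays. In the main setting it was at least 3.10-fold higher (adjusted p = 0.0116), and over 19 alternatives its log2 difference ran from 0.65 to 2.50. Tnfrsf13b (TACI), a receptor of B cells, rose by 0.77 (adjusted p = 0.0365), but its adjusted p lay between 0.0589 and 0.0919 in 6 of the 8 fits that left out an array. Tnfsf9, the ligand of 4-1BB, differed by -0.60 (adjusted p = 0.0556), and it passed the threshold in 6 of 20 alternatives. Among these were median centring (adjusted p = 0.0178), quantile normalization (0.0194) and the fit without PMSG array 3 (0.0163).

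Downstream of Cd40, 2 of 14 tested genes of TRAF and NF-kB signalling were higher and 1 was lower. Traf1, an adaptor of TNF receptors and itself an NF-kB target, rose from -1.95 ± 0.17 to -1.05 ± 0.20 (SD, n = 4), by 0.90 (adjusted p = 0.00157, limma). Birc3, the ubiquitin ligase cIAP2, rose by 0.87 (adjusted p = 0.00419). Chuk, the kinase IKK alpha, fell by 0.45 on the log2 scale (adjusted p = 0.0143), and this call was lost with normexp background correction (adjusted p = 0.342) and with the replicate number as a block (0.0579). The median over the list was 0.11, and it was -0.0016 after quantile normalization and -0.05 with median centring. The probes of Traf3, a CD40 adaptor, disagreed: the brightest differed by -0.27 (adjusted p = 0.116), another by -0.86 (adjusted p = 0.0115), and their mean by -0.57 (adjusted p = 0.0236). Of the NF-kB subunits and inhibitors, Rela (0.24), Nfkb1 (-0.18), Nfkb2 (0.10) and Nfkbia (0.12) did not pass the threshold.

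**Figure D3:**
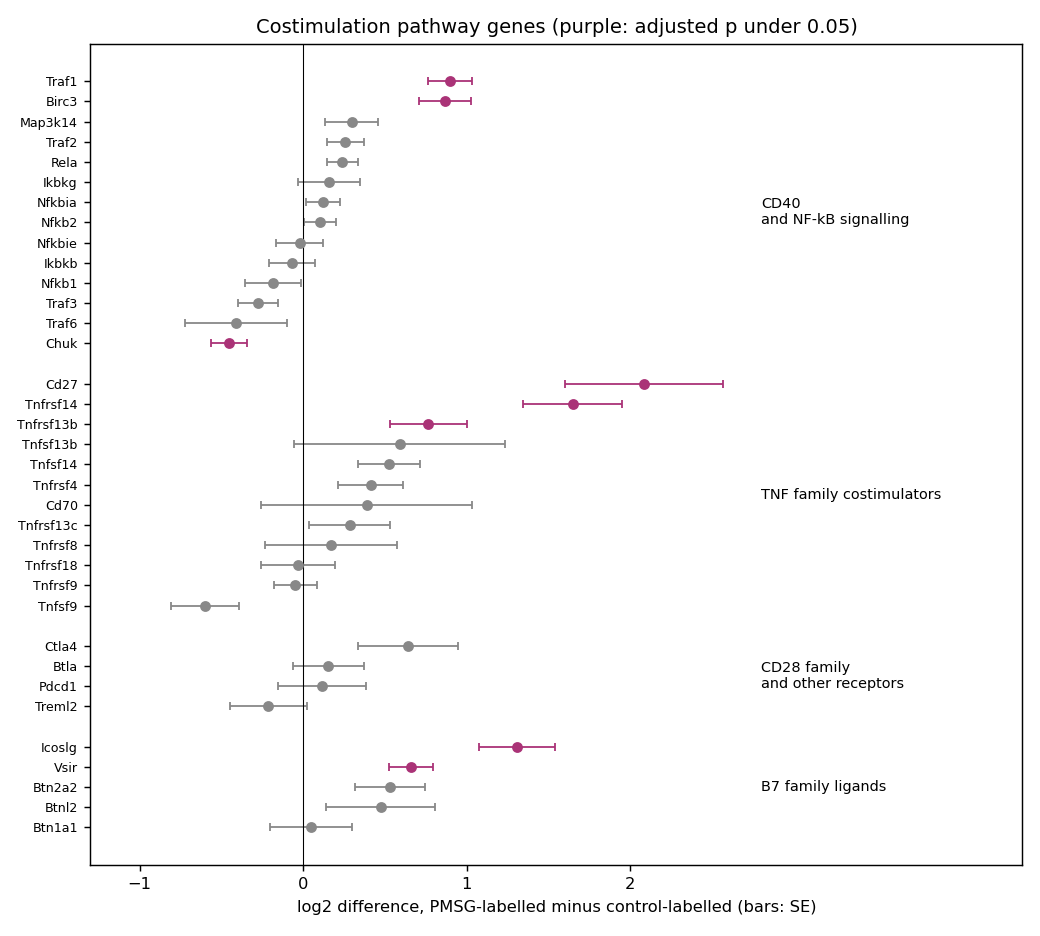
Log2 difference (horizontal axis, PMSG-labelled minus control-labelled arrays) of the 35 tested genes of the costimulation pathway, with the SE as bars, in 4 lists. Purple marks the 8 genes past an adjusted p of 0.05, of which Chuk alone lies below 0; the Cd27 point includes control arrays that were not well above background.

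Vtcn1 is known from epithelia and Cd83, Cd40, Cd80 and Cd86 from antigen-presenting cells, and markers of these cells were measured beside them. Of all tested probes, 17.6% were called higher and 16.6% lower, the shares to set beside each count of markers below. Higher on the PMSG arrays were 5 of 7 tested genes of class II antigen presentation, the function with which Cd83 is linked, with 0 lower and a median difference of 1.03. RT1-Da rose by 1.68 (adjusted p = 2.79e-04, limma), Cd74, the invariant chain, by 1.66 (adjusted p = 6.72e-04) and RT1-Bb by 1.29 (adjusted p = 8.17e-04). The log2 of the list's summed scaled signal, which weights the brightest probes most, was 1.58 to 1.98 on control arrays and 2.85 to 3.29 on PMSG arrays, without overlap.

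Dendritic cell genes did not move one way. Of 9 tested, 2 were higher and 2 were lower, and the median was 0.40. With the mean over a gene's probes, 3 were higher and 2 lower. The probes of Flt3, a dendritic cell gene, disagreed in size. Its brightest probe differed by 0.48 (adjusted p = 0.0502, limma) and another by 1.71 (adjusted p = 0.0469). Clec9a, of cross-presenting dendritic cells, rose by 1.51 (adjusted p = 0.00463, limma) and Lamp3, a maturation marker like Cd83, by 0.93 (adjusted p = 0.0169). Fscn1, which stromal cells also carry, fell by 0.76 on the log2 scale (adjusted p = 0.00124). Batf3, the other gene called lower, differed by -0.52 (adjusted p = 0.0281), and that call was lost in 7 of 20 alternatives. Clec9a and Lamp3 were dim on the control arrays, with means of -6.19 and -5.30. Over 20 alternatives their differences ran from 0.53 to 1.72 and from 0.43 to 1.16. Xcr1 and Cd209a were not well above background. The log2 summed signal was 2.51 to 2.76 on control and 1.88 to 2.18 on PMSG arrays, a sum that Fscn1 dominates. Over the other 8 genes it was -1.78 to -1.19 and -1.53 to -0.95, and the groups overlapped.

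Of 8 tested T cell genes 5 were higher and 0 lower (median 1.07). Cd247 rose by 1.47 (adjusted p = 0.00577, limma). The log2 summed signal of the T cell list was -0.38 to 0.09 on control and 0.34 to 1.39 on PMSG arrays. The T cell markers Cd2 and Cd5 were not well above background. Among 8 genes shared by leukocytes 3 were higher and 0 lower (median 0.45), with Cd53 at 0.80 (adjusted p = 9.21e-04) and Ptprc, the pan-leukocyte marker CD45, at 0.69 (adjusted p = 0.00447), and summed levels of 3.47 to 3.70 and 3.83 to 3.95. Without the brightest gene, Laptm5, these levels were 2.94 to 3.15 and 3.15 to 3.28 and overlapped slightly. Of 11 macrophage genes 3 were higher and 0 lower, the median was 0.15, or -0.02 with median centring, and the summed ranges of 3.77 to 4.54 and 4.34 to 4.69 overlapped. Without the brightest gene, C1qb, they were 3.10 to 3.73 and 3.75 to 4.06 and did not overlap. Aif1 rose by 0.68 (adjusted p = 0.00444). Past the threshold were 62.5% of the tested T cell genes, 37.5% of the leukocyte genes and 27.3% of the macrophage genes, beside 34.2% of all probes.

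Of 14 tested epithelial genes of the ovarian surface and oviduct, 8 were higher on the PMSG arrays, where Vtcn1 was lower, and 0 were lower, with a median of 0.59 and summed log2 levels of 5.10 to 5.47 on control and 5.65 to 6.22 on PMSG arrays. Muc1, an epithelial mucin, was well above background on 3 control and all 4 PMSG arrays. In the main setting it was at least 8.03-fold higher (adjusted p = 1.71e-04, limma), and over 19 alternatives its log2 difference ran from 1.45 to 3.27. Cdh16, an epithelial cadherin, rose by 2.51 (adjusted p = 3.36e-04) and Foxj1, the regulator of motile cilia, by 1.67 (adjusted p = 0.00234). The call of Upk1b, 1 of the 8 epithelial genes, was lost in 12 of 20 alternatives, those of C1qa and Cd68 in 10 each, that of Batf3 in 7 and that of Cd4 in 6. The part of these cell types in the values of Vtcn1, Cd83 and Cd40 was not tested.

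**Figure D4:**
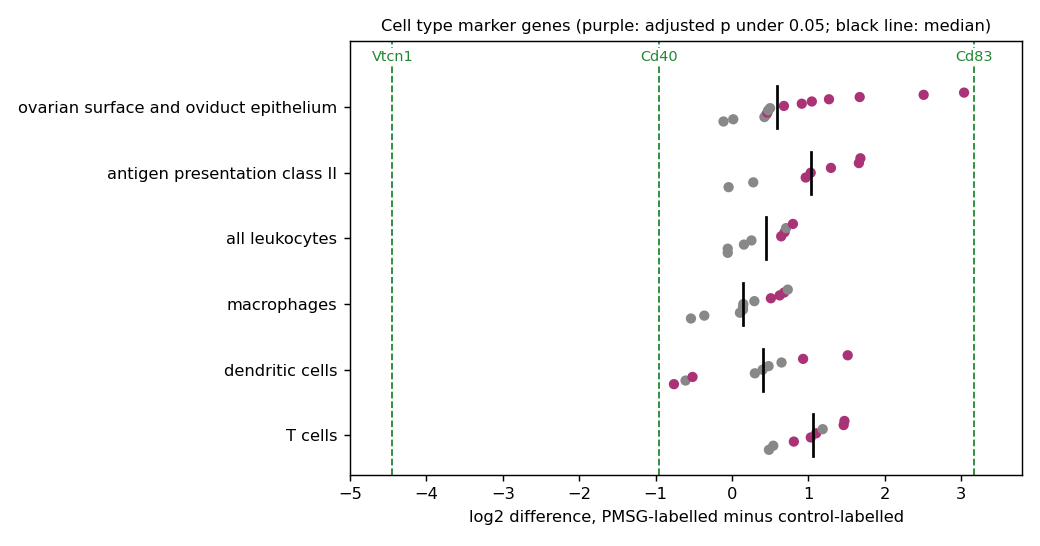
Log2 differences (horizontal axis, PMSG-labelled minus control-labelled arrays) of marker genes of leukocytes, antigen presentation and epithelium, 1 point per tested gene, with purple for an adjusted p under 0.05 and a black line at the median of each list. Dashed lines mark Vtcn1 (-4.45), Cd40 (-0.95) and Cd83 (3.17); each of the 6 medians lies above 0, between the lines of Cd40 and Cd83, though that of the macrophage list is -0.02 with median centring.

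Genes of the follicle differed too. Of 10 granulosa cell genes 3 were higher and 3 lower (summed log2 levels of 6.94 to 7.61 on control and 6.75 to 7.13 on PMSG arrays). Amhr2, the receptor of Amh, rose by 1.71 (adjusted p = 8.17e-04, limma). Lower were Nr5a2, a nuclear receptor of granulosa cells, at -1.47 (adjusted p = 7.70e-04), Fst, the activin antagonist follistatin, at -1.05 (adjusted p = 8.45e-04) and Inhba, an activin subunit, at -1.32 (adjusted p = 0.0237). The call of Inhba was lost in 6 alternatives. All 7 oocyte genes were higher, with a median of 1.97 and summed levels of 1.56 to 2.41 and 3.36 to 4.48. Of 4 theca genes 3 were higher (4.97 to 5.33 and 4.57 to 5.60, or 0.64 to 1.19 and 2.60 to 3.63 without the brightest gene, Cyp17a1), and of 6 steroidogenic genes 5 were lower, as Vtcn1 was, with a median of -2.04 (8.08 to 8.25 and 6.88 to 7.47). Their part in the member values was not tested either.

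The member differences kept their size under most settings, and the direction of Vtcn1, Cd83 and Cd40 did not change in any of 16 alternatives. Vtcn1 ranged from -4.61 to -3.29, Cd83 from 2.85 to 3.27 and Cd40 from -1.12 to -0.86. The smallest difference of all 3 came with normexp background correction, which adds an offset of 50 to each signal. Cd86 ranged from -0.48 to 0.19 and Cd276 from -0.16 to 0.16.

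**Figure D5:**
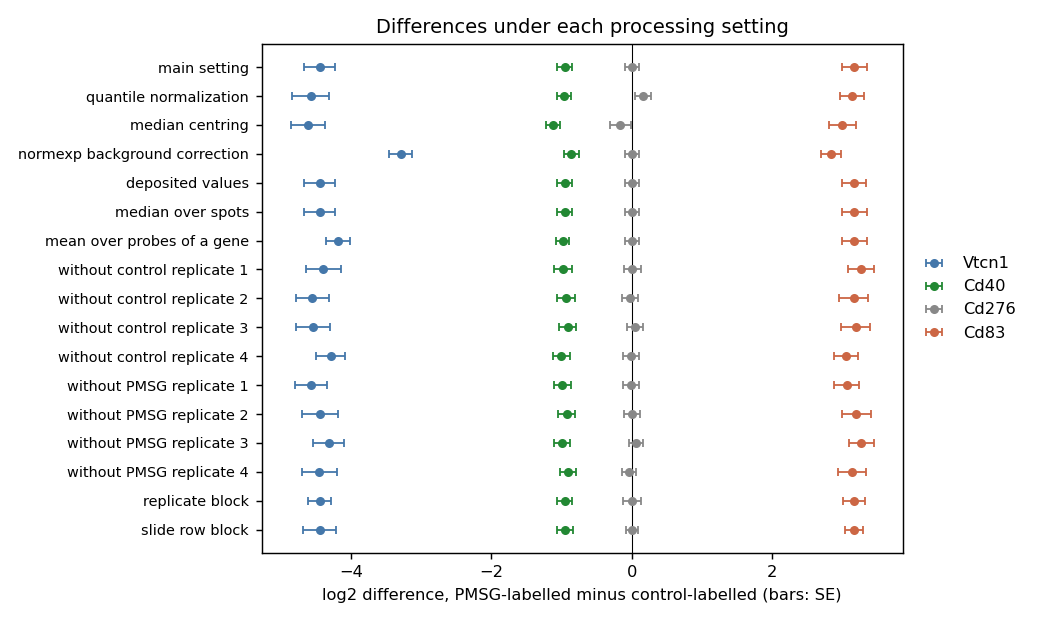
Log2 difference (horizontal axis, PMSG-labelled minus control-labelled arrays) of Vtcn1, Cd40, Cd276 and Cd83 with the SE as bars, for the main setting and each of 16 alternatives (vertical axis). Vtcn1 stays at or below -3.29, Cd83 at or above 2.85 and Cd40 at or below -0.86, while Cd276 lies on both sides of 0.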

How the data were processed

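Ovary RNA of 4 control and 4 PMSG samples, grouped by sample title, was measured on 1-colour arrays. Oligo-dT primed cRNA, labelled with Cy3, was made from 500 ng of RNA, per the labels' protocols. Spot intensity was extracted by the authors with Feature Extraction 11.5.1.1 on the rn4 design, per the file headers. The deposited value table holds log2 intensity minus the 75th percentile, as a match of all 8 columns to their own arrays showed, and served as an alternative. Per array, log2 processed signal minus its 75th percentile was taken over non-control spots, and spots of a probe were averaged. Probes well above background on at least 4 of 8 arrays (25303 of 30350) were fitted with limma 3.58.1 in R 4.3.3, 4 against 4 arrays, no covariate, with Benjamini-Hochberg adjustment over all of them and a threshold of 0.05. The fit was first checked on simulated data.

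The members, gene lists and alternatives were chosen with earlier results of these data known. The brightest tested probe stood for each listed gene: 144 genes matched by gene name and 4 by RefSeq accession (Vsir, Traf1, Fscn1 and Adgre1), and 9 did not match. Named were all members and, per list, up to 3 genes with the largest difference past the threshold, or else 1 tested gene. Other list genes named (Btn2a2, Pdcd1, Btla, Tnfsf9, Traf3, the NF-kB subunits, Batf3, Flt3, Fst, Inhba and Upk1b) were chosen after their values were seen. Where a probe was not well above background on some arrays of its dimmer group, "at least" gives the brighter group's mean over the dimmer group's mean, each array raised to its lowest signal among spots well above background. Same-numbered arrays of the 2 groups did not deviate together (correlations of -0.02 to 0.18), so numbers were not used as pairs. Alternatives were quantile normalization, median centring, normexp correction with an offset of 50, the deposited values, the median over spots, the mean over a gene's probes, filters, array weights, a test without moderation, each array left out, and the replicate number or slide row as a block. All arrays share 1 slide, so slide could not be a block. The number of arrays limits the precision. The B cell marker list and 1 of the genes most like Vtcn1 are not reported here.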

Additional observations from a re-analysis of the deposited data

Results flagged for a closer look

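In 92 groups of 4 arrays, covering the members and named list genes, 4 had an array that stood apart from the other 3 by Dixon's criterion, where chance alone gives about 1 in 20. None concerned a member. Laptm5 read 2.52 on PMSG array 3, beside 2.42 to 2.43. Cdh16 read -1.31 on control array 4, beside -0.72 to -0.65. On PMSG array 4, Insl3 read 2.49, beside 3.50 to 3.59, and Gli1 read -1.27, beside -1.72 to -1.70.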

How the results depend on the processing

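The directions of Vtcn1, Cd83 and Cd40 did not change. Differences moved by more than the spread between replicates in 5 cases: Vtcn1 was -3.29 and Cd83 2.85 with normexp correction, Cd40 was -1.12 with median centring, and Cd276 was 0.16 with quantile normalization and -0.16 with median centring. Array weights raised the count of pathway genes past the threshold from 8 to 13 (10 higher, 3 lower). The cause was not tested. With an array left out, Vtcn1 ran from -4.57 to -4.29, Cd83 from 3.06 to 3.27, Cd40 from -1.002 to -0.91, Cd86 from -0.35 to 0.09 and Cd276 from -0.03 to 0.06. Pathway genes past the threshold then numbered 7 to 11, marker genes 44 to 56 of 90 (50 with all arrays) and probes 6552 (without control array 4) to 11382 (without PMSG array 4). With the replicate number as a block, 7346 probes, 8 pathway genes and 45 marker genes passed, and member differences were the same. With the slide row as a block these counts were 8124, 8 and 48. Calls lost in 4 or more settings were those of Upk1b, C1qa, Cd68, Tnfrsf13b, Batf3, Cd4, Inhba and Ptch1. No difference is given for Cd80 or Cd274 under any setting, since neither was well above background on any array. Cd86 is limited by its closeness to the background.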
